A study of Homo sapiens with 5 samples.

Results

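This report describes the genes that carry zinc across membranes, bind it in the cytosol and sense it in BT474 cells that survived lapatinib. The members were every gene of the table named SLC39A, SLC30A or SLC41A with a number, every metallothionein (MT1 with a letter, MT2A, MT3 and MT4) and MTF1. They came to 39 of the 18512 genes in the table, on 40 of its 18803 rows, because SLC39A7 stands on a pair of rows. BT474 is a cell line from a luminal breast tumour with amplified HER2, and lapatinib inhibits the kinases HER2 and EGFR. Persister cells (3 libraries) are those that remained once the line had spent 9 days in lapatinib at 2 µM, given anew every 3 days. Parental cells (2 libraries) were kept in parallel with no lapatinib, and both groups carried 0.01% DMSO. Polyadenylated RNA was sequenced, and the deposited table holds a single FPKM value (mapped fragments per unit of transcript length and of sequencing depth) per gene and group. The values below are therefore the authors' group values, with no SD or n, and the depth of the libraries and the spread between them are unknown. Each group comes from a single cell line, and no group was treated briefly or released from the drug, so the drug's direct effects, growth arrest and traits of the surviving cells cannot be told apart.

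Cells keep free cytosolic zinc very low while they supply it to a large share of their enzymes and transcription factors. SLC39A proteins (the ZIP family) move zinc into the cytosol, from outside the cell or out of organelles. Most SLC30A proteins (the ZnT family) move it the other way, out of the cell or into organelles and secretory vesicles. Metallothioneins are short cysteine-rich proteins that bind zinc and copper, and MTF1 is the zinc-sensing transcription factor that activates metallothionein genes and SLC30A1. SLC41A proteins carry magnesium, not zinc, and serve here as a family of another metal. In the breast, zinc transporters load milk, and SLC39A6 is an estrogen-regulated gene of luminal tumours.

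Zinc importers were more often lower than higher in persister cells, metallothionein transcripts were higher or not called, and the zinc exporters held members called in each direction. A gene was called when its q-value in the authors' deposited table was under 0.05, among genes covered by their test (q-value below 1). Of the 39 members, 25 were covered by the test and 18 were called (72%), 7 of them higher and 11 lower in persister cells. Over all 13617 genes covered by the test, 69.9% were called, 30.9% higher and 39.0% lower, so the share of members called was near the background. Differences are given throughout as log2(FPKM + 1) in persister minus parental cells. Called differences of 1 or more were found in 4 members (16%), 1 higher and 3 lower, against 9.00% of all genes tested (2.98% higher and 6.01% lower), and those 4 were all SLC39A genes. FPKM was also scaled to the same sum in both groups, a setting chosen after the data were seen. The q-values were left as deposited, so only the direction and size of a difference could change. No test was run on scaled values. By scaled direction, 9 of the 18 called members were higher and 9 lower, and the background became 38.3% higher and 31.6% lower. Called differences of 1 or more were then left in 1 member, SLC39A10, which was higher, and in 0 lower ones, against 6.57% higher and 3.61% lower over all genes tested. Centred on the all-gene median, they were likewise 1 higher and 0 lower, against 4.02% and 4.71%. Both counts of 0 depend on the 1 added to FPKM, which shrinks differences of low genes. Without it, the scaled FPKM ratio of persister to parental cells was 0.284 for SLC39A8 and 0.471 for SLC39A4, both called lower. Scaling to the same sum adds 0.36 to the log2 ratio of every gene, because the FPKM of the table summed to 260213 in persister cells and 333324 in parental cells. The median difference over the 10291 genes with at least 1 FPKM in both groups was -0.11 as deposited.

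**Figure D1:**
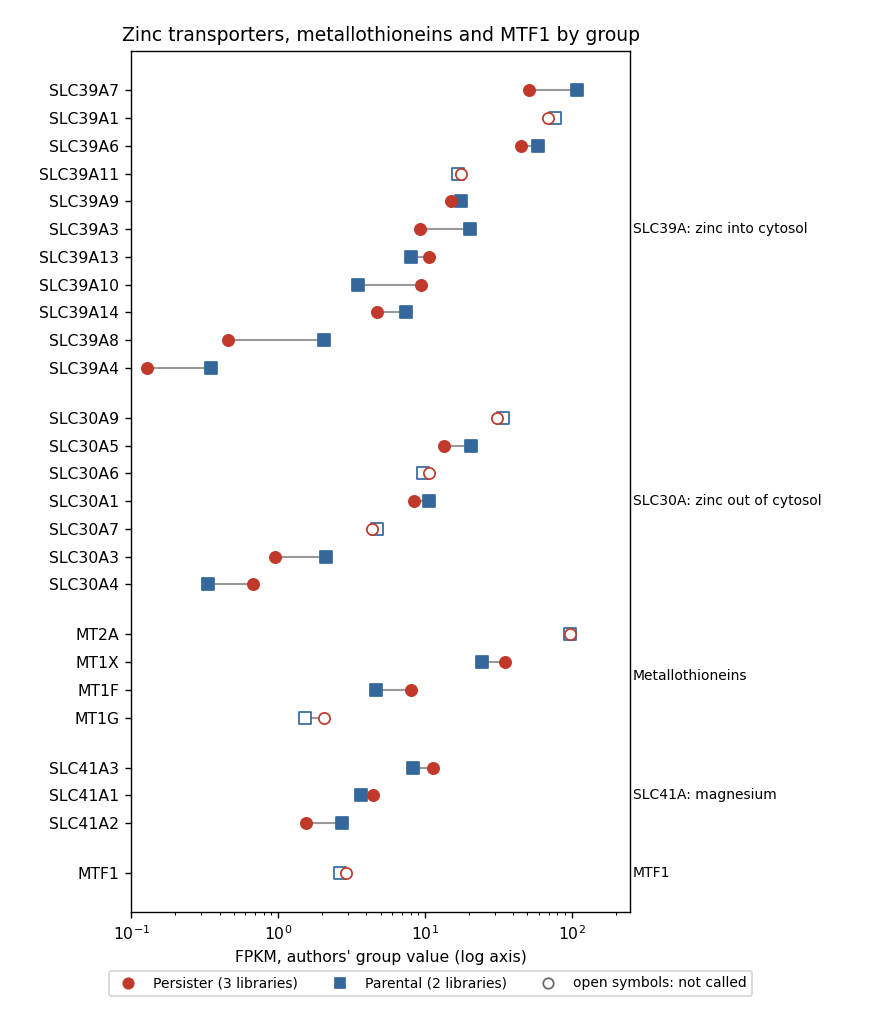
FPKM of each member that reached 0.1 FPKM in 1 or both groups, on a log axis, with persister cells as circles and parental cells as squares; filled symbols mark called genes. Among called genes, SLC39A10, SLC39A13, SLC30A4, MT1X, MT1F, SLC41A3 and SLC41A1 have the persister symbol to the right, and the widest gaps belong to SLC39A8, with 0.458 FPKM in persister and 2.07 FPKM in parental cells, and SLC39A10 and SLC39A4.

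Facts of the whole table bear on these values. All 7 luminal epithelial markers were present, at 18.2 to 623 FPKM in persister and 12.4 to 841 FPKM in parental cells. All 7 were called, where 69.9% of all tested genes were, with 5 lower and 2 higher and a median difference of -0.43. These values are as deposited, and scaling to the same sum adds 0.36 to each log2 ratio. EPCAM and CDH1, adhesion genes of epithelia, had 89.6 and 89.98 FPKM in persister cells, against 144 and 143 FPKM in parental cells. GATA3, a transcription factor of luminal cells, had 43.3 FPKM in persister and 14.1 FPKM in parental cells. ERBB2, the gene for HER2, is listed at 0 for each group, and no level can be read for it. Of 5 fibroblast markers 4 were under 0.1 FPKM in both groups, and COL1A1 had 8.73 FPKM in persister and 13.4 FPKM in parental cells. Of 4 immune markers 3 were under 0.1 FPKM in both groups, and CD68 had 1.97 FPKM in persister and 2.30 FPKM in parental cells and was not called. The endothelial markers CDH5 and VWF had 0.0441 and 0.0884 FPKM in persister cells, against 0.592 and 0.487 FPKM in parental cells, with PECAM1 under 0.1 FPKM in both. Their part in the results was not tested. Across the 10107 genes with at least 1 FPKM in both groups and a known transcript length, the difference had a Spearman's rho of 0.24 with that length and of -0.27 with the mean FPKM. These genes share the same libraries and are not independent replicates. The tested metallothionein transcripts have 406 to 786 nucleotides and the tested zinc transporter transcripts 2260 to 7898.

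Among the 14 SLC39A genes, 7 of the 11 tested fell in persister cells, 2 rose and 2 were not called. In all tested genes 39.0% were lower and 30.9% higher. The median difference of the 11 tested genes was -0.26, beside -0.038 over all tested genes. That median was -0.40 with a pseudocount of 0.1 in place of 1 and -0.15 when centred on the all-gene median. With FPKM scaled to the same sum it was -0.038, beside 0.18 over all tested genes. By scaled direction, with q-values left as deposited, 6 called genes were lower and 3 higher. The 3 higher ones included SLC39A9, which was called lower as deposited. The sum over the family was 233 FPKM in persister and 322 FPKM in parental cells, a ratio of 0.723, which became 0.927 with FPKM scaled to the same sum. In bulk RNA, fewer cells of a type and less RNA per cell cannot be told apart.

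Uptake at the cell surface is the role of most SLC39A proteins, and here the members differed in direction. SLC39A1, a broadly used zinc importer of the plasma membrane, had the highest level of the family in persister cells at 69.0 FPKM, against 76.7 FPKM in parental cells. It was not called (q = 0.147 in the authors' deposited table). SLC39A3, its close relative at the plasma membrane, had 9.33 FPKM in persister and 20.4 FPKM in parental cells. SLC39A3 fell 2.18-fold, a difference of -1.05, and its q-value reads 0 in the authors' deposited table. Of all tested genes, 5.42% had a lower difference.

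SLC39A6 and SLC39A10 encode closely related importers that are known to form a complex at the plasma membrane, and they were called in opposite directions. SLC39A10 had 9.45 FPKM in persister and 3.48 FPKM in parental cells. SLC39A10 rose 2.71-fold, a difference of 1.22, and its q-value reads 0 in the authors' deposited table. That was the largest rise among the tested members, and 1.84% of all tested genes had a higher difference. SLC39A6, also known as LIV-1, had 45.0 FPKM in persister and 59.2 FPKM in parental cells. SLC39A6 fell 1.32-fold (q = 2e-06 in the authors' deposited table), and its difference was -0.39 as deposited and -0.038 with FPKM scaled to the same sum. SLC39A10 transcripts per SLC39A6 transcript came to 0.210 in persister and 0.0588 in parental cells.

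SLC39A14, which transports iron and manganese besides zinc, had 4.76 FPKM in persister and 7.44 FPKM in parental cells (q = 2.12e-09 in the authors' deposited table). SLC39A8, a carrier of manganese, zinc and cadmium, had 0.458 FPKM in persister and 2.07 FPKM in parental cells. SLC39A8 fell 4.51-fold, the widest fold among the tested members, with a difference of -1.07, and its q-value reads 0 in the authors' deposited table. SLC39A4, the zinc importer of the gut that is mutated in acrodermatitis enteropathica, was at a low level in both groups, with 0.129 FPKM in persister and 0.351 FPKM in parental cells (q = 0.00119 in the authors' deposited table). SLC39A2, SLC39A5 and SLC39A12 stayed under 0.05 FPKM in both groups and were not covered by the test.

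The remaining SLC39A proteins release zinc from organelles into the cytosol. SLC39A7 is the importer of the endoplasmic reticulum and Golgi, opened by protein kinase CK2. It had 51.0 FPKM in persister and 109.7 FPKM in parental cells. SLC39A7 fell 2.15-fold, a difference of -1.09, and its q-value reads 0 in the authors' deposited table. Of all tested genes, 4.93% had a lower difference. It held 21.9% of the SLC39A sum in persister cells and 34.1% in parental cells, where it was the highest member. The second row of the table under its name was listed at 0 in both groups. CSNK2B and CSNK2A1 encode a regulatory and a catalytic subunit of CK2. They had 86.1 and 35.1 FPKM in persister cells, against 118 and 47.6 FPKM in parental cells. Both were called lower, where 39.0% of all tested genes were, and CSNK2A2, another catalytic subunit, was not called. The differences of CSNK2B and CSNK2A1, -0.45 and -0.43, are as deposited, and scaling to the same sum adds 0.36 to each log2 ratio. A link to SLC39A7 was not tested.

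SLC39A13, an importer of intracellular vesicles mutated in a form of Ehlers-Danlos syndrome, went the other way. It had 10.7 FPKM in persister and 8.04 FPKM in parental cells, a rise of 1.33-fold (q = 4.02e-04 in the authors' deposited table). SLC39A9, a transporter of the Golgi and cell surface, had 15.2 FPKM in persister and 17.5 FPKM in parental cells (q = 0.0133 in the authors' deposited table). Its difference was -0.19 as deposited and 0.14 with FPKM scaled to the same sum, so its direction depended on scaling. SLC39A11 had 17.8 FPKM in persister and 16.8 FPKM in parental cells and was not called (q = 0.486 in the authors' deposited table). By site, the organelle group (SLC39A7, SLC39A9, SLC39A11 and SLC39A13) summed to 94.6 FPKM in persister and 152 FPKM in parental cells, a ratio of 0.622 as deposited and 0.797 with FPKM scaled to the same sum. The surface group of 10 genes summed to 138 FPKM in persister and 169.7 FPKM in parental cells. Its ratio was 0.814 as deposited and 1.04 with that scaling, so the direction of the surface sum depended on scaling. The site of each protein was assigned from general knowledge, and several occur at more than a single site.

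**Figure D2:**
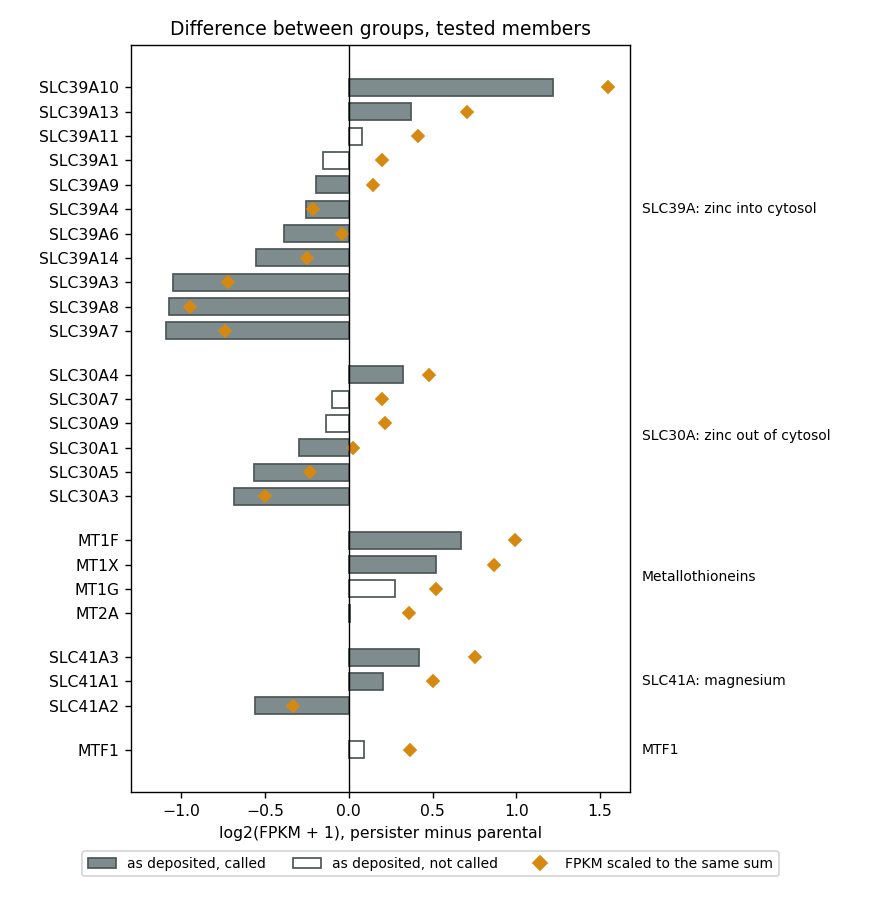
Difference in log2(FPKM + 1), persister minus parental, for the 25 tested members; bars give the values as deposited (grey when called, white when not) and diamonds the values with FPKM scaled to the same sum. SLC39A10 stands alone to the right at 1.22, SLC39A7, SLC39A8 and SLC39A3 lie near -1, and 5 diamonds lie on the other side of 0 from their bars, those of SLC39A9 and SLC30A1 among called genes and those of SLC39A1, SLC30A9 and SLC30A7 among genes not called.

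Of the 10 SLC30A genes, 6 were tested, of which 3 fell, 1 rose and 2 were not called, beside 39.0% lower and 30.9% higher over all tested genes. The median difference of the tested genes was -0.21 as deposited and 0.11 with FPKM scaled to the same sum (0.18 over all tested genes), so the family had no direction that held under both scalings. The family summed to 69.7 FPKM in persister and 82.2 FPKM in parental cells, a ratio of 0.848 as deposited and 1.09 with FPKM scaled to the same sum. No tested SLC30A gene differed by 1 or more in log2(FPKM + 1), which understates changes of low genes. In FPKM itself, SLC30A3 fell 2.25-fold and SLC30A4 rose 2.01-fold, both at low levels.

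SLC30A1, the exporter that carries zinc out through the plasma membrane and is switched on by MTF1, had 8.46 FPKM in persister and 10.6 FPKM in parental cells. It was called lower (q = 0.00169 in the authors' deposited table), with a difference of -0.30 as deposited and 0.028 with FPKM scaled to the same sum. SLC30A10, the other surface exporter, known mainly for manganese, had 0.0109 FPKM in persister and 0.00422 FPKM in parental cells and was not covered by the test. MTF1 itself had 2.90 FPKM in persister and 2.66 FPKM in parental cells and was not called (q = 0.250 in the authors' deposited table).

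The exporters of the early secretory pathway load zinc into enzymes such as alkaline phosphatases. SLC30A5 works as a complex with SLC30A6, and SLC30A7 works with itself. SLC30A5 had 13.5 FPKM in persister and 20.6 FPKM in parental cells and fell 1.52-fold (q = 1.2e-07 in the authors' deposited table). SLC30A6 had 10.7 FPKM in persister and 9.66 FPKM in parental cells, but the table sets its fold to 1 and its q-value to 1, as it does in 145 rows whose FPKM values differ, and it was taken as having no estimate. From the listed FPKM, SLC30A5 transcripts per SLC30A6 transcript came to 1.27 in persister and 2.13 in parental cells. That ratio rests on SLC30A6 values without an estimate, which also enter the SLC30A sum. SLC30A7 had 4.35 FPKM in persister and 4.74 FPKM in parental cells and was not called (q = 0.283 in the authors' deposited table).

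SLC30A9, a mitochondrial zinc exporter that was also described as a nuclear receptor coactivator, had the highest level of the family. It had 31.0 FPKM in persister and 34.1 FPKM in parental cells and was not called (q = 0.0810 in the authors' deposited table). SLC30A9 held 44.5% of the SLC30A sum in persister cells and 41.5% in parental cells. As it carries zinc out of mitochondria, the family sum is not a measure of removal from the cytosol alone. The figure label for the family, zinc out of cytosol, does not hold for SLC30A9. The vesicle transporters were far lower. SLC30A3, known from synaptic vesicles, had 0.951 FPKM in persister and 2.14 FPKM in parental cells and fell 2.25-fold (q = 6.92e-15 in the authors' deposited table). SLC30A4, a transporter of endosomes and secretory vesicles, had 0.673 FPKM in persister and 0.334 FPKM in parental cells and rose 2.01-fold (q = 1.76e-04 in the authors' deposited table). SLC30A2, the transporter that loads zinc into milk, had 0.00948 FPKM in persister and 0.0153 FPKM in parental cells. SLC30A8, the zinc transporter of insulin granules, had 0.00121 FPKM in persister and 0.000671 FPKM in parental cells, and neither gene was covered by the test.

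**Figure D3:**
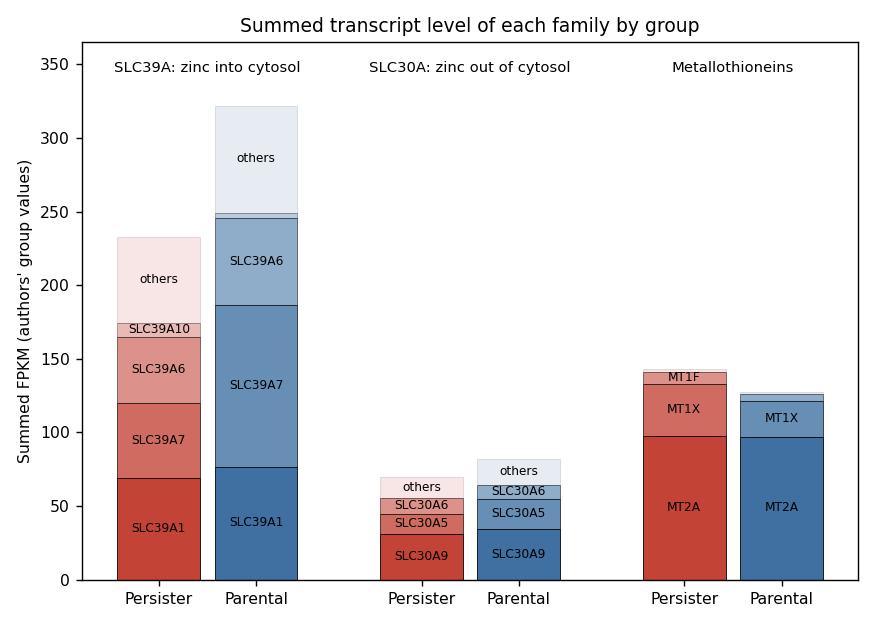
Summed FPKM of the SLC39A, SLC30A and metallothionein families, persister bar left of the parental bar in each pair, split into the named members and all others. The SLC39A bar is shorter in persister cells (233 against 322 FPKM), with the largest gap in SLC39A7, and the metallothionein bar is taller (143 against 128 FPKM) with an equal MT2A segment.

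Among metallothioneins, 2 of the 4 tested genes rose in persister cells and 0 fell, beside 30.9% higher and 39.0% lower over all tested genes. The other 2 tested genes were not called at a q-value of 0.05 or 0.01. The median difference of these 4 genes was 0.40, beside -0.038 over all tested genes, and with FPKM scaled to the same sum the values were 0.69 and 0.18. MT2A, the most abundant isoform in most human cells, had 97.5 FPKM in persister and 97.2 FPKM in parental cells. It was not called (q = 0.965 in the authors' deposited table), and its difference was 0.0055 as deposited and 0.36 with FPKM scaled to the same sum.

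MT1X and MT1F, inducible isoforms of the MT1 group, rose. MT1X had 35.3 FPKM in persister and 24.4 FPKM in parental cells, a rise of 1.45-fold (q = 2.61e-05 in the authors' deposited table). MT1F had 8.04 FPKM in persister and 4.67 FPKM in parental cells, a rise of 1.72-fold (q = 3.11e-05 in the authors' deposited table). The differences were 0.52 for MT1X and 0.67 for MT1F, and 11.3% and 7.29% of all tested genes had a higher difference. MT1G had 2.05 FPKM in persister and 1.52 FPKM in parental cells and was not called (q = 0.216 in the authors' deposited table). MT1X transcripts per MT2A transcript came to 0.362 in persister and 0.251 in parental cells.

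The other 7 metallothioneins were not covered by the test. MT1B, MT1M and MT3 were listed at 0 in both groups. MT1A and MT1E were listed at 0 in persister cells, against 0.0174 and 0.0115 FPKM in parental cells. MT1H had 0.0364 FPKM in persister and 0.0173 FPKM in parental cells. MT4, known from stratified epithelia, had 0.0454 FPKM in persister cells and was listed at 0 in parental cells. The family thus rested on MT2A, MT1X, MT1F and MT1G, and MT2A held 68.2% of its sum in persister cells and 76.1% in parental cells.

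Most metallothionein coding sequences are near copies of each other, so the split of reads that fall in them is uncertain. The parts of the transcripts outside the coding sequence were not compared. The coding sequences of the 3 isoforms with the highest levels are shown for that reason, from GENCODE 29. Each has 186 nucleotides on the plus strand of chromosome 16, and capitals in MT1X and MT1F mark bases that differ from MT2A at the same position.
MT2A: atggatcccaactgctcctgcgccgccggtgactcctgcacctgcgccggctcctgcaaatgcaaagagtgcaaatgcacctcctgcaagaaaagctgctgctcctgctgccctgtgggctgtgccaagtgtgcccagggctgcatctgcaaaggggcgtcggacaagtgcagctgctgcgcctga
MT1X: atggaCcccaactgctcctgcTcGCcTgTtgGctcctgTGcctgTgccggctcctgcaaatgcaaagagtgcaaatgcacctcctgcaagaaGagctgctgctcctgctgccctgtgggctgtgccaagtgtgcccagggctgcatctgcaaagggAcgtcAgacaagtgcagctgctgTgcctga
MT1F: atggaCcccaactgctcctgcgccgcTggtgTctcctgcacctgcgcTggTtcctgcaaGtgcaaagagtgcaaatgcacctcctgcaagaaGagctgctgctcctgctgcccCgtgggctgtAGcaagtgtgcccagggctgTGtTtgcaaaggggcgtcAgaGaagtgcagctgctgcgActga
MT1X differed from MT2A at 14 positions (92.5% identity), MT1F from MT2A at 16 positions (91.4%) and MT1X from MT1F at 21 positions (88.7%). Over the 36 pairs of metallothioneins of equal coding length, identity ranged from 88.7% to 95.2%. The longest identical run between any pair was 96 nucleotides, shared by MT1G and MT1X, and MT2A and MT1X shared a run of 63. The sources used here do not say how reads that fit more than a single copy were assigned, so the values of single isoforms carry this uncertainty. The sum over the family was 143 FPKM in persister and 128 FPKM in parental cells, a ratio of 1.12 as deposited and 1.43 with FPKM scaled to the same sum. Without MT2A, the log2 ratio of the sums was 0.57.

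The metallothionein genes lie side by side on chromosome 16, and the expressed ones did not form a single block. In the order of the RefSeq annotation (GRCh38.p14), MT2A is followed by MT1E, MT1M, MT1A and MT1B, each listed at or near 0, and then by MT1F, MT1G, MT1H and MT1X. Of 8 listed genes near the cluster, 7 were tested, of which 2 rose and 3 fell. Over all tested genes, 30.9% were higher and 39.0% lower. NUDT21 had 31.4 FPKM in persister and 33.3 FPKM in parental cells, and HERPUD1 had 92.8 and 90.3 FPKM. Neither was called. The called flanking genes went in different directions. BBS2, a gene of the primary cilium on the MT4 side, rose, with 10.2 FPKM in persister and 7.37 FPKM in parental cells. NUP93, a nuclear pore gene on the MT1X side, fell, with 14.0 FPKM in persister and 26.0 FPKM in parental cells. OGFOD1, beyond BBS2, fell as well, with 11.9 FPKM in persister and 20.4 FPKM in parental cells. These calls come from the authors' deposited table.

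**Figure D4:**
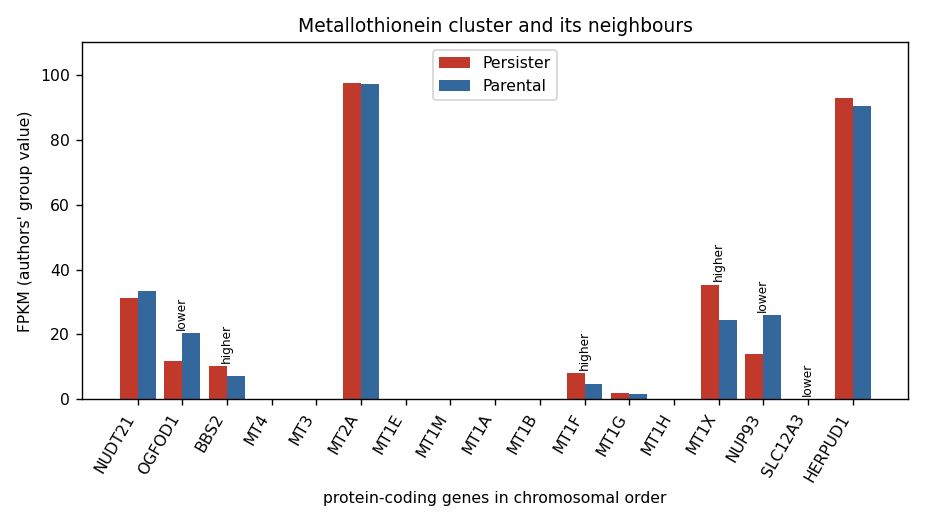
FPKM of the protein-coding genes of the metallothionein cluster and its neighbours in chromosomal order, persister bar left of parental; called genes carry the word higher or lower. MT2A reaches 97.5 and 97.2 FPKM, the genes from MT1E to MT1B show no visible bar, and MT1F and MT1X are higher in persister cells between flanking genes called in different directions.

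MTF1 binds metal response elements, short motifs in the promoters of its target genes. The 250 bases before the start of 4 members are shown, from RefSeq (GRCh38.p14), with each match to TGCACNC or TGCGCNC on either strand in capitals (no matches overlapped in these windows). MT2A was chosen as the highest metallothionein, MT1X as a called one, MT1H as one near 0 FPKM and SLC30A1 as the exporter that MTF1 controls. The windows are chr16:56608334-56608583 on the plus strand for MT2A, chr16:56682220-56682469 on the plus strand for MT1X, chr16:56669564-56669813 on the plus strand for MT1H and chr1:211579162-211579411 on the minus strand for SLC30A1.
MT2A: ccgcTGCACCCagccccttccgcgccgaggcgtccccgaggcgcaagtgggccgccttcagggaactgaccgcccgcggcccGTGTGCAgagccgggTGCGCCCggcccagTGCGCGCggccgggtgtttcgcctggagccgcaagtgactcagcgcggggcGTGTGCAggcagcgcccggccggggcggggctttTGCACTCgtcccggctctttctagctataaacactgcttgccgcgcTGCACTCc
MT1X: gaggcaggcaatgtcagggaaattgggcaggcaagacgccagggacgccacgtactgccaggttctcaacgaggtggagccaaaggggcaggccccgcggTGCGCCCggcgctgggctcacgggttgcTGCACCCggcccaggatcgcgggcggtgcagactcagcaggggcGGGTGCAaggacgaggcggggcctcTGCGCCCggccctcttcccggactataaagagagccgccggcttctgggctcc
MT1H: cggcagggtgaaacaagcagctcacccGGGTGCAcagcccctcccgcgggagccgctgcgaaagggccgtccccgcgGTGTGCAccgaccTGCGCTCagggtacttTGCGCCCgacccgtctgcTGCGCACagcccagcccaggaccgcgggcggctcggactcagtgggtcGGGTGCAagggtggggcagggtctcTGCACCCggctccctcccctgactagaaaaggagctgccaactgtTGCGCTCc
SLC30A1: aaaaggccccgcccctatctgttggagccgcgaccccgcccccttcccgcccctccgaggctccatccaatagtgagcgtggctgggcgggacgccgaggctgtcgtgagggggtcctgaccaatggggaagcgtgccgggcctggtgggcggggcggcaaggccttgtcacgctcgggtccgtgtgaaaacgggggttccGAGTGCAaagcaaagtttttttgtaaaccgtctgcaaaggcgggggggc
There were 7 matches in the MT2A window, 4 in MT1X, 8 in MT1H and 1 in SLC30A1. Windows were given for 30 of the 39 members, among them 5 of the 11 metallothioneins (MT2A, MT1X, MT1H, MT1B and MT4), and all 5 held at least 3 matches. At least 3 matches were found in 1.58% of all 35116 promoter windows, and at least 1 in 24.8%. MTF1 had no match, nor had any of the 5 windows of the SLC41A genes. A match was held by 6 of the 11 SLC30A windows (54.5%), with 3 matches in SLC30A2, and by 5 of the 19 SLC39A windows (26.3%). MT1H held more matches than MT2A and was at 0.0364 FPKM in persister cells. A match is a description of the sequence and not a binding site.

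Ratios between the families do not depend on a single scaling factor between the groups. A shift that varies with transcript length or level would change them, and its effect on them was not tested. SLC39A transcripts per SLC30A transcript came to 3.34 in persister and 3.92 in parental cells, from the summed FPKM. That ratio compares families and not import with export, since SLC30A9 is in the SLC30A sum. Metallothionein transcripts per zinc transporter transcript of both families came to 0.473 in persister and 0.316 in parental cells. No test was possible for these ratios, because the table holds no values per library.

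All 3 magnesium transporters of the SLC41A family were called, in different directions, where 69.9% of all tested genes were called. SLC41A3, a magnesium carrier of mitochondria, had 11.4 FPKM in persister and 8.29 FPKM in parental cells and rose 1.38-fold (q = 6.38e-04 in the authors' deposited table). SLC41A1, which exchanges magnesium for sodium at the plasma membrane, had 4.41 FPKM in persister and 3.70 FPKM in parental cells (q = 0.0131 in the authors' deposited table). SLC41A2 fell 1.78-fold, with 1.54 FPKM in persister and 2.75 FPKM in parental cells (q = 5.41e-12 in the authors' deposited table). Of 9 other tested magnesium genes, 4 rose and 3 fell, beside 30.9% higher and 39.0% lower over all tested genes, and their median difference was -0.041. CNNM4 and CNNM3, of a family linked to magnesium export, had 16.7 and 8.49 FPKM in persister cells, against 10.5 and 5.28 FPKM in parental cells. NIPA2, a magnesium transporter, had 41.6 FPKM in persister and 67.0 FPKM in parental cells.

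**Figure D5:**
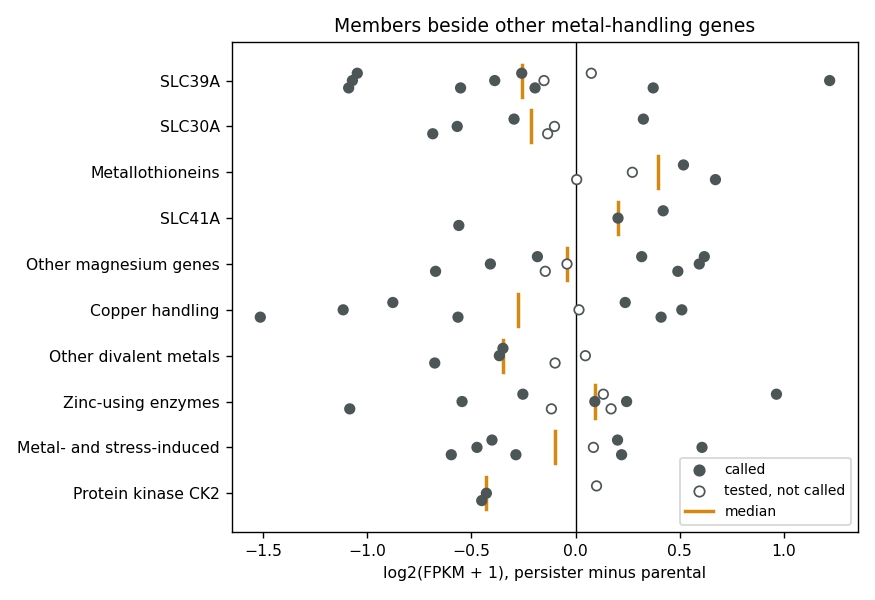
Difference in log2(FPKM + 1), persister minus parental, of each tested gene in the 4 transporter and metallothionein families and in 6 lists of other metal-handling genes; filled points were called and the bar marks the median of the list. The metallothionein points all lie at or right of 0, with a median of 0.40, and the other lists spread to both sides of 0.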

How the data were processed

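Libraries of BT474 RNA kept no strand information, per the labels' protocols, so reads of overlapping genes were not separable. TopHat2 2.0.6 and Cuffdiff 2.0.2, beside Cufflinks and CASAVA 1.8, are named in the submitters' processing notes with the build hg18. The FPKM values were deposited by the authors as 1 value per group and gene, per the file headers. The deposited q-value belongs to the authors' own comparison of the groups. Its adjustment, and the scaling between libraries, are not stated. The authors' fold column was used only to find rows with no estimate (fold and q-value of 1 although FPKM differed by over 0.6%). Depth per library is unknown, so no interval was computed. That the 2 and 3 libraries came from separate cultures is known only as the submitters' word, biological replicates.

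Where a gene name stood on more than 1 row (269 names), the row with the higher mean FPKM was used, and the 26 rows with a spreadsheet date for a name were kept apart by transcript identifier. Differences are log2(FPKM + 1), persister minus parental, which understates changes of low genes. No fit over single libraries was possible, against the plan, and a gene was called by the authors' q-value. All members were described, with both values for those of 5 FPKM or more or called. The members and lists were chosen with earlier results of these data known. From each list of other genes up to 3 called ones with the largest difference were named, and flanking genes by value. SCO2, a member of the copper list, was not analysed here. Counting and motif functions were tested on simulated data. Alternatives changed the q threshold (0.01), the pseudocount (0.1 and 0.5), an FPKM minimum (1), a minimum difference (1) and the scaling. Scaling and centring left the q-values as deposited. Python 3.11.15, pandas 2.3.3 and scipy 1.17.1 were used. The hg18 build differs from that of the reference, whose coordinates are given only for the promoter sequences shown.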

Additional observations from a re-analysis of the deposited data

How the results depend on the processing

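The deposited values are group values without counts, so results rest on the authors' own test, and leaving out each replicate in turn was not run. No paired analysis was possible because the columns carry no replicate numbers. Requiring a difference of at least 1 left 0 SLC30A genes lower and 0 higher, 3 SLC39A genes lower and 1 higher, 0 metallothioneins higher, and 0 SLC41A genes higher and 0 lower. Over all tested genes, 2.98% were then called higher and 6.01% lower. A q threshold of 0.01 left 1 SLC41A gene higher. An FPKM minimum of 1 left 0 SLC30A genes higher, since SLC30A4 was removed. The median difference of the SLC39A genes was -0.40 with a pseudocount of 0.1 and -0.39 with 0.5. Centred on the all-gene median, the medians were -0.10 for SLC30A, -0.15 for SLC39A and 0.32 for SLC41A. With FPKM scaled to the same sum (for families a setting chosen after the data were seen), the medians were 0.11 for SLC30A, -0.038 for SLC39A, 0.69 for metallothioneins and 0.50 for SLC41A. By scaled direction, with q-values left as deposited, 2 called SLC30A genes were higher. They included SLC30A1, which was called lower as deposited. Called members lower by 1 or more numbered 0 both with that scaling and when centred (added after the data were seen), against 3 as deposited. These counts use a pseudocount of 1, which shrinks differences of low genes. Under that scaling SLC30A1 turned to 0.028 and SLC39A9 to 0.14, while 16 of the 18 called members kept their sign. The log2 ratio of the metallothionein sums was 0.16 as deposited, 0.52 with that scaling and 0.57 without MT2A. Pseudocounts and centring turned the sign of 0 called members. The cause of the unequal FPKM sums was not tested.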

Other observations

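Other metal-handling genes were described from lists that name no member. Their values and directions are as deposited and were not scaled to the same sum. Copper genes were called in different directions, with 4 of 8 tested lower and 3 higher in persister cells and a median difference of -0.27. Over all tested genes 39.0% were lower and 30.9% higher. COX17, which carries copper to the respiratory chain, had 34.8 FPKM in persister and 101 FPKM in parental cells. The copper importer SLC31A1 had 6.57 FPKM in persister and 15.4 FPKM in parental cells, and SCO1, another copper chaperone of the respiratory chain, had 11.4 FPKM in persister and 21.8 FPKM in parental cells. Of 5 genes for other divalent metals, 3 fell and 0 rose, where 39.0% of all tested genes were lower and 30.9% higher. SLC11A2, an importer of iron and manganese, had 14.3 FPKM in persister and 23.4 FPKM in parental cells. ATP2C2 and TMEM165, which supply the Golgi with calcium and manganese, had 15.2 and 35.4 FPKM in persister cells, against 19.9 and 45.3 FPKM in parental cells. The differences were -0.68 for SLC11A2, -0.37 for ATP2C2 and -0.35 for TMEM165. Scaling to the same sum adds 0.36 to each log2 ratio, so those of ATP2C2 and TMEM165 are near the size of that shift.

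Of 9 tested enzymes that use zinc, 3 rose and 3 fell, beside 30.9% higher and 39.0% lower over all tested genes. ALPP, the placental alkaline phosphatase, had 0.977 FPKM in persister and 0.0123 FPKM in parental cells, with near copies in the genome that make its value uncertain. ENPP1, a surface phosphodiesterase, had 5.61 FPKM in persister and 13.03 FPKM in parental cells, and the copper and zinc superoxide dismutase SOD1 had 173 FPKM in persister and 253 FPKM in parental cells. Of 8 genes that respond to metals or oxidants, 3 rose and 4 fell, where 69.9% of all tested genes were called. The heme oxygenase HMOX1 had 3.92 FPKM in persister and 2.23 FPKM in parental cells, thioredoxin (TXN) had 105 FPKM in persister and 160 FPKM in parental cells, and the ferritin heavy chain (FTH1) had 530 FPKM in persister and 736 FPKM in parental cells. All of these calls come from the authors' deposited table, and no list was tested against other genes.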
